A study of Mus musculus with 24 samples.

Results

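The effect of deleting Phf6 in the restricted progenitors named HPC-1 was set against the mean of its effects in haematopoietic stem cells (HSC) and multipotent progenitors (MPP). The quantity throughout is a difference of differences: the log2 ratio of deleted to control libraries in HPC-1, minus the mean of the same log2 ratio in HSC and in MPP. All 24 libraries of the series entered it. They form 6 groups of 4: Phf6-deleted and control HPC-1, Phf6-deleted and control HSC, and Phf6-deleted and control MPP. Each of 8 mice gave 1 library of each of the 3 populations, and each of 4 litters gave 1 deleted and 1 control mouse.

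Deleted and control mice carry the same strain label, which names a floxed Phf6 allele over a Y chromosome and a Tie2-cre transgene, and differ in a label that calls Phf6 deleted or intact. Tie2-cre is a Cre driver of endothelial and haematopoietic cells, so loss of the gene is not limited to the sorted cells. Whether control mice had the Cre transgene is not clear from the labels, which give no age either. The marrow was depleted of lineage-positive cells, and populations were separated by their cKIT, SCA1, CD48 and CD150. Poly(A) RNA was sequenced with SMART-Seq v4 and Nextera XT kits in HSC and MPP and with a TruSeq Stranded kit in HPC-1. The kit and the population therefore cannot be told apart where levels are concerned, and only effects of deletion are compared. The precision within each population differed too, and there the kit and the cells cannot be told apart either.

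Phf6 encodes a nuclear PHD finger protein, found on chromatin and in nucleoli, whose loss by mutation is frequent in T-cell leukaemia of humans. HSC sit at the top of blood formation, MPP are their immediate progeny, and HPC-1 are CD48-positive progenitors whose potential is more restricted. In marrow stem and progenitor cells interferons induce antiviral genes, guanylate-binding proteins (GBP) and immunity-related GTPases (IRG), and push stem cells towards division.

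Total counts ran from 9658167 to 27786830 per library. Deleted MPP library 3 had 9.339% of its counts in its 10 most abundant genes, where the other libraries had 2.948% to 5.083%. Its 14710 genes detected lay below the 15951 to 16479 of the other MPP libraries, though within the range of 14212 to 16479 over all other libraries. Of the sort markers, Cd48 was at 216 to 243 CPM (counts scaled to library size) in deleted and 181 to 218 CPM in control HPC-1, and at 9.59 to 30.3 CPM in deleted and 3.14 to 50.4 CPM in control HSC and MPP. Slamf1, the gene of CD150, was at 0 to 1.15 CPM in deleted and 1.16 to 1.57 CPM in control HPC-1, at 8.78 to 49.9 CPM in deleted and 50.3 to 82.7 CPM in control HSC, and at 0 to 3.39 CPM in deleted and 1.33 to 2.65 CPM in control MPP. Kit and Ly6a, the gene of SCA1, were detected in every library.

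No gene had a deletion effect in HPC-1 that differed from the mean effect in HSC and MPP past the threshold of the main test, while DESeq2 called some. edgeR's quasi-likelihood test called 0 of 15316 genes (percent called 0) at a Benjamini-Hochberg adjusted p under 0.05, and the lowest adjusted p was 0.28. At an unadjusted p under 0.05 there were 531 genes (3.47%), 259 higher (1.69%) and 272 lower (1.78%) in HPC-1, where 766 would be reached by chance alone. Each component of the comparison gave the same count of 0. HPC-1 against HSC alone had a lowest adjusted p of 0.327, and 571 genes (3.73%) were at an unadjusted p under 0.05. HPC-1 against MPP alone had a lowest adjusted p of 0.902, with 611 genes (3.99%). DESeq2 with the same mouse block called 25, 36 and 13 genes in these 3 comparisons, and limma-voom called 0.

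A count of 0 does not show that the effects were alike, so the interval of each difference matters. The median standard error of the log2 difference was 0.309 and the 95% interval reached a median of 0.647 to either side. The whole interval lay within 1 log2 unit either side of 0 for 8448 of the 15223 genes that had an interval (55.5%). That share was 94.8% for genes with a mean over 100 CPM, 75.3% at 10 to 100 CPM, 2.95% at 1 to 10 CPM and 0.806% below 1 CPM. Single populations were measured with median standard errors of 0.176 in HPC-1, 0.295 in HSC and 0.287 in MPP. Across the 10338 genes over 10 CPM, the HPC-1 effects correlated at 0.276 with the HSC effects and at 0.333 with the MPP effects, and the MPP and HSC effects at 0.365. These are descriptions across genes, from libraries of the same mice, and genes are not independent replicates.

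The targeted gene itself was measured first. Phf6 (chromosome X, 52912214 to 52956961 on GRCm38) was at 35.4, 26.1, 34.7 and 22.8 CPM in the deleted HPC-1 libraries of litters 1 to 4, against 116, 153, 127 and 106 CPM in the controls. In HSC, Phf6 was at 35.1, 50.9, 52.7 and 75.7 CPM in deleted mice and at 177, 209, 230 and 212 CPM in controls. In MPP, Phf6 was at 48.1, 65.6, 49.0 and 53.6 CPM in deleted mice and at 187, 165, 226 and 177 CPM in controls. In each population all 4 deleted libraries lay below all 4 controls. The log2 effect was -2.08 ± 0.16 (SE) in HPC-1, -1.95 ± 0.22 in HSC and -1.82 ± 0.18 in MPP. Its difference was -0.18 ± 0.25 (95% interval -0.70 to 0.35), so the loss in HPC-1 lay within 1 SE of the mean loss in the others. The sign of that difference was positive (0.032) without deleted mouse 4. Counts are per gene, so reads outside the floxed part may be among them.

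Within HPC-1 alone, the 8 libraries gave 9 genes past the threshold of 15316 (0.0588%), against 1 in HSC (0.00653%) and 4 in MPP (0.0261%). With the litter as a block the counts were 67 in HPC-1 (0.437%), 0 in HSC (0%) and 6 in MPP (0.0392%). A call in 1 population and not in another does not show that the effects differ, and for most of these genes the difference itself was small. The following values place the 3 effects beside each other, and the plot of CPM by library shows the libraries behind them.

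**Figure D1:**
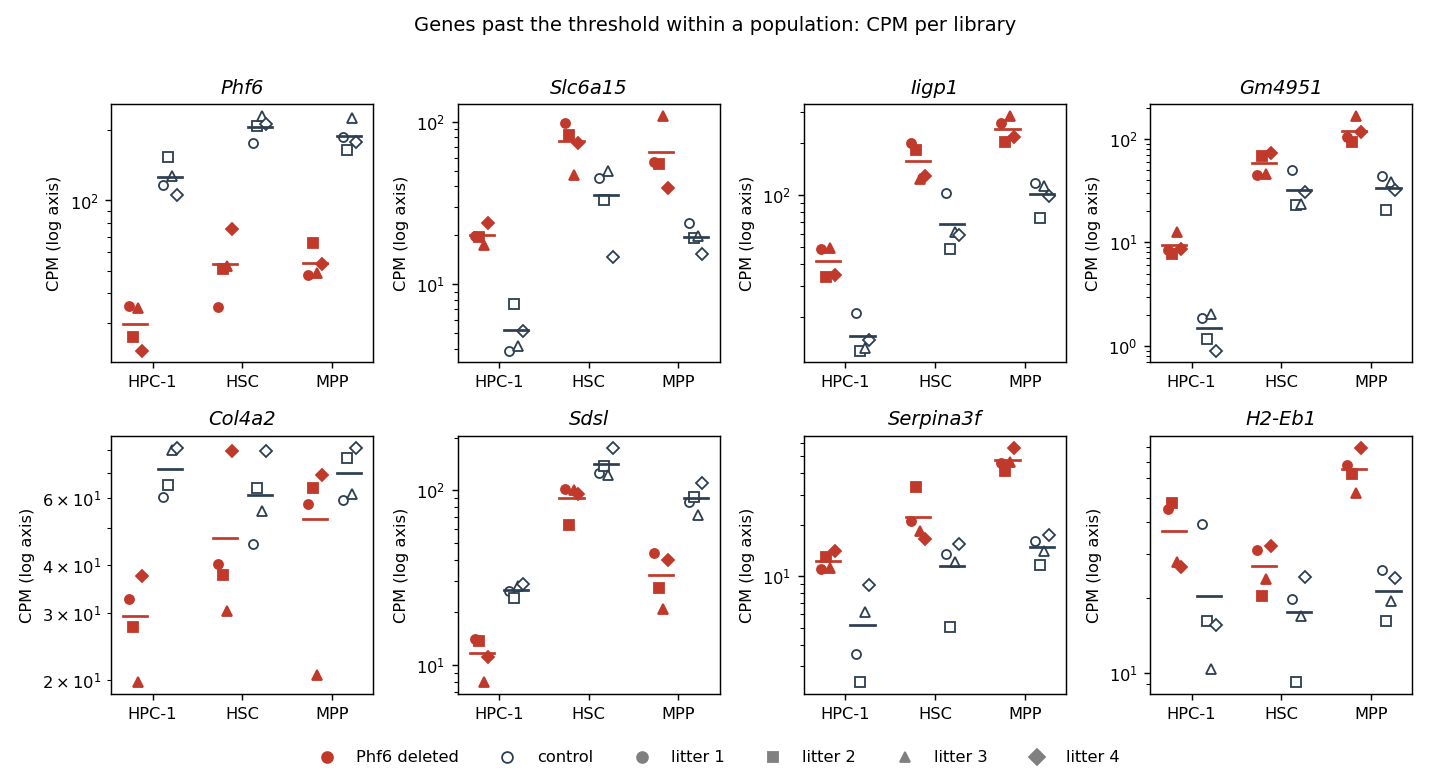
CPM per library (log axis) for 8 genes past the threshold in at least 1 population, with deleted libraries as filled red symbols and controls as open dark symbols, the symbol shape giving the litter and the bar the mean of 4. Phf6 lay lower and Iigp1 and Gm4951 lay higher in every deleted library than in every control of HPC-1, and levels are not comparable between HPC-1 and the other populations, which used another kit.

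Among the genes that were higher in deleted cells, Slc6a15 encodes an amino acid transporter of the sodium-coupled kind. In HPC-1, Slc6a15 was at 19.9, 19.6, 17.4 and 23.9 CPM in deleted mice, against 3.90, 7.55, 4.13 and 5.18 CPM in controls. In HSC, Slc6a15 was at 98.8, 83.4, 46.7 and 74.5 CPM in deleted mice and at 45.0, 33.0, 49.6 and 14.6 CPM in controls. In MPP, Slc6a15 was at 56.8, 55.1, 108 and 38.9 CPM in deleted mice and at 23.8, 19.3, 19.8 and 15.3 CPM in controls. Deleted and control libraries did not overlap in HPC-1 or MPP, and in HSC control 3 lay above deleted library 3. Its effects were 1.95 ± 0.25, 1.10 ± 0.35 and 1.70 ± 0.30 in HPC-1, HSC and MPP, and the difference of 0.50 ± 0.42 had a 95% interval of -0.37 to 1.38.

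Iigp1 and Gm4951 belong to the interferon-inducible GTPase family, Gm4951 being a predicted member. Iigp1 was at 48.8, 33.9, 49.3 and 34.9 CPM in deleted HPC-1, against 21.1, 12.7, 13.2 and 14.6 CPM in controls. Its effects were 1.43 ± 0.19 in HPC-1, 1.23 ± 0.25 in HSC and 1.23 ± 0.20 in MPP, and the difference was 0.18 ± 0.20 (95% interval -0.24 to 0.60). Gm4951 was at 8.52, 7.72, 12.6 and 8.70 CPM in deleted HPC-1, against 1.85, 1.16, 2.04 and 0.898 CPM in controls. In HSC, Gm4951 was at 44.6, 69.0, 46.2 and 73.8 CPM in deleted mice and at 49.8, 22.96, 23.6 and 30.9 CPM in controls. In MPP, Gm4951 was at 104, 93.4, 166 and 118 CPM in deleted mice and at 43.5, 20.7, 38.5 and 31.8 CPM in controls. The groups did not overlap in HPC-1 or MPP, while in HSC control 1 lay above deleted libraries 1 and 3. The effects of 2.66 ± 0.36, 0.88 ± 0.28 and 1.82 ± 0.26 in HPC-1, HSC and MPP gave a difference of 1.30 ± 0.31 (95% interval 0.66 to 1.94, unadjusted p = 0.000461, edgeR adjusted p = 1). Within each mouse the HPC-1 value less the mean of HSC and MPP, centred on the controls, was 1.38, 1.00, 1.58 and 0.96 in deleted mice and -0.21, 0.26, 0.54 and -0.60 in controls. All 4 deleted mice lay above all 4 controls, a pattern that 1.74% of all genes showed. Gm4951 was read because it passed within HPC-1, whose effect is a part of the difference. That choice favours such a separation, so the share of all genes is not a fair background for it. Over the 17 other settings fitted for named genes, the difference of Gm4951 ran from 1.11 to 1.49. The lowest adjusted p among them was 0.0508. Those settings did not include leaving out a single library. Against HSC alone, DESeq2 called Gm4951 (1.76, adjusted p = 0.0037), beside 0.235% of all genes. Reads can be shared between relatives of this family, and how such reads were counted is not given in the sources used here.

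Serpina3f, a serine protease inhibitor gene, and H2-Eb1, a class II beta chain gene, were past the threshold in MPP. Serpina3f had effects of 1.22 ± 0.34 in HPC-1, 0.96 ± 0.37 in HSC and 1.66 ± 0.21 in MPP, with a difference of 0.01 ± 0.30 (95% interval -0.61 to 0.63). H2-Eb1 had effects of 0.85 ± 0.44 in HPC-1, 0.63 ± 0.31 in HSC and 1.61 ± 0.22 in MPP, with a difference of -0.19 ± 0.34 (95% interval -0.90 to 0.52). Both signs changed under other settings. Lin28b, the gene of an RNA-binding protein of fetal stem cells that blocks let-7 maturation, was the other MPP call. It was at 0.775, 1.76, 2.98 and 5.47 CPM in deleted HPC-1, against 1.30, 0, 0 and 0.122 CPM in controls. In HSC, Lin28b was at 2.73, 13.7, 19.3 and 20.3 CPM in deleted mice and at 0.927, 0.578, 3.27 and 2.79 CPM in controls. In MPP, Lin28b was at 4.35, 7.95, 6.93 and 7.01 CPM in deleted mice, against 0.0585, 0.0735, 0 and 0 CPM in controls. Deleted and control libraries overlapped in HPC-1 and in HSC, where deleted library 1 lay below controls 3 and 4, and not in MPP. The MPP libraries held 453 counts in deleted mice and 2 in controls, a 216-fold ratio (95% counting interval 59.6 to 1790, counting error only). The difference between HPC-1 and the mean of the others was -1.62 ± 1.21 (95% interval -4.15 to 0.92), and 0.366 without control mouse 1.

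Among the genes lower in deleted HPC-1, Sdsl, the gene of a serine dehydratase-like enzyme, was at 14.1, 13.7, 7.93 and 11.04 CPM in deleted HPC-1, against 26.6, 23.97, 28.2 and 28.8 CPM in controls. Its effects of -1.21 ± 0.20 in HPC-1, -0.64 ± 0.19 in HSC and -1.46 ± 0.25 in MPP left a difference of -0.17 ± 0.23 (95% interval -0.66 to 0.32). Adgrl1, the gene of an adhesion G protein-coupled receptor, had effects of -1.13 ± 0.17, -0.50 ± 0.37 and -1.28 ± 0.37 in HPC-1, HSC and MPP and a difference of -0.18 ± 0.31 (95% interval -0.83 to 0.47). Zfp532, a zinc finger gene, had effects of -1.26 ± 0.21, -0.83 ± 0.37 and -0.52 ± 0.29 and a difference of -0.43 ± 0.32 (95% interval -1.10 to 0.23).

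Col4a2, a chain of basement membrane collagen (chromosome 8, 11312805 to 11449287 on GRCm38), was the gene of this group with the most separate effects. In HPC-1, Col4a2 was at 32.6, 27.5, 19.7 and 37.5 CPM in deleted mice, against 60.4, 65.0, 80.1 and 81.0 CPM in controls. In HSC, Col4a2 was at 40.1, 37.7, 30.3 and 79.9 CPM in deleted mice and at 45.4, 63.8, 55.6 and 79.8 CPM in controls. In MPP, Col4a2 was at 57.8, 63.7, 20.6 and 69.1 CPM in deleted mice and at 59.1, 76.5, 61.4 and 81.4 CPM in controls. The groups were apart in HPC-1 and overlapped in HSC and MPP. Its effects were -1.29 ± 0.18 in HPC-1, -0.37 ± 0.30 in HSC and -0.41 ± 0.32 in MPP. The difference was -0.85 ± 0.23 (95% interval -1.34 to -0.36, unadjusted p = 0.00171, edgeR adjusted p = 1). It stayed between -0.96 and -0.74 over the 17 other settings fitted for named genes, which did not include leaving out a single library. Col4a2 too was read because it passed within HPC-1, a choice that favours a difference of this sign. Col4a2 is also in the list of endothelial and stromal markers, whose summed level in HPC-1 was 464 to 577 CPM in deleted and 553 to 650 CPM in control libraries. That list summed to 305 to 566 and 449 to 1070 CPM in deleted and control HSC. In MPP it summed to 214 to 439 CPM in deleted and 445 to 464 CPM in control libraries, so a lower level was not particular to HPC-1. In bulk libraries fewer cells of a type and less RNA per cell cannot be told apart, and the part of such cells in the result was not tested.

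The immunoglobulin segment Igkv12-44 was called in HPC-1 on few reads. It held 178 counts in deleted HPC-1, with 2.91, 1.48, 2.61 and 1.41 CPM in litters 1 to 4, against 2 counts in controls, a 96.7-fold ratio (95% counting interval 26.4 to 805). In HSC the deleted libraries held 0 counts and the controls 1, and in MPP they held 0 and 3. Those populations thus offer no effect to set it against. The 16 markers of B and plasma cells summed to 650 to 3210 CPM in deleted and 673 to 1590 CPM in control HPC-1 libraries, with none of them at 0 throughout, and their part in this result was not tested.

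**Figure D2:**
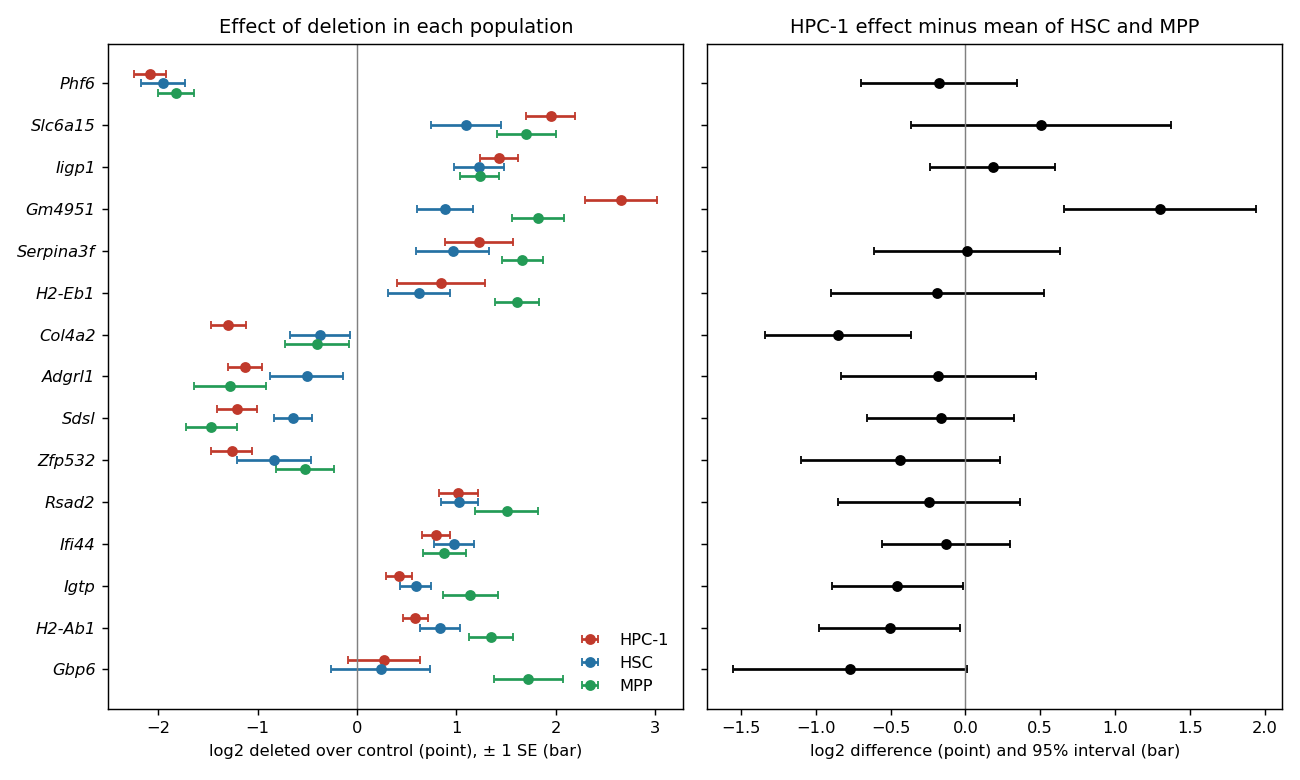
Left, log2 effect of deletion (deleted over control) with 1 SE in HPC-1 (red), HSC (blue) and MPP (green) for 15 genes; right, the difference of the HPC-1 effect from the mean of the other populations with its 95% interval. Intervals of Gm4951, Col4a2, Igtp and H2-Ab1 leave out 0, but none of these genes had an adjusted p under 0.05.

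Beyond the genes called within a population, the genes with the lowest unadjusted p for the difference itself were read, 8 in each direction by the naming rule, which ranks no predicted or unnamed gene. None passed edgeR's quasi-likelihood test after Benjamini-Hochberg adjustment. DESeq2, which called 0.163% of all genes in this comparison, called 7 of these 16, with adjusted p of 0.00148 for Pls1, 0.00313 for Lancl3, 0.0154 for Cpt1c, 0.0167 for Cavin3, 0.0285 for Maneal, 0.0291 for Pkp2 and 0.0447 for Fndc4. The 16 were chosen by p in the same comparison, so nothing is read from that count, and all of the 7 but Cavin3 were near 0 in at least 1 group. With edgeR, Lancl3 also passed without deleted mouse 4 (adjusted p = 0.0247). Of the 20 genes with the lowest p, 5 were unnamed or predicted and 9 had a mean under 10 CPM, and the single lowest has an identifier but no name in the tables used. In HPC-1 its counts summed to 42 in deleted and 1 in control mice, a ratio of 45.6 (95% counting interval 7.75 to 1840), while in HSC its counts summed to 515 in deleted and 553 in control mice, and in MPP to 431 and 483.

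Of the 8 genes named in the upward direction, Palm, Ticrr and Lars2 were measured well above 0. Palm encodes paralemmin, a protein bound to the inner face of the plasma membrane. It was at 84.1, 99.8, 77.3 and 133 CPM in deleted HPC-1, against 98.8, 84.2, 90.5 and 109 CPM in controls. In HSC, Palm was at 3.52, 7.35, 4.10 and 18.5 CPM in deleted mice and at 16.7, 21.9, 14.4 and 21.4 CPM in controls. In MPP, Palm was at 13.9, 13.6, 9.05 and 26.2 CPM in deleted mice and at 18.1, 20.4, 17.1 and 32.5 CPM in controls. HPC-1 libraries of the genotypes were mixed, and the HSC libraries of 3 deleted mice lay below all controls. Its effects were 0.03 ± 0.15 in HPC-1, -1.15 ± 0.49 in HSC and -0.50 ± 0.34 in MPP, and its difference 1.01 ± 0.27 (95% interval 0.43 to 1.58, edgeR unadjusted p = 0.00165).

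Ticrr encodes a regulator of the start of DNA replication. It was at 98.7, 97.6, 95.3 and 102 CPM in deleted HPC-1, against 88.1, 95.9, 91.3 and 93.1 CPM in controls. In HSC, Ticrr was at 13.9, 23.9, 7.98 and 9.09 CPM in deleted mice and at 26.6, 27.7, 29.4 and 31.4 CPM in controls. In MPP, Ticrr was at 10.4, 14.1, 12.6 and 5.32 CPM in deleted mice and at 20.5, 14.99, 14.6 and 14.5 CPM in controls. In HSC and MPP every deleted library lay below every control, and in HPC-1 every deleted library except number 3 lay above all controls. Its difference was 1.04 ± 0.29 (95% interval 0.43 to 1.65, edgeR unadjusted p = 0.00201), from effects of 0.09 ± 0.09, -1.06 ± 0.34 and -0.63 ± 0.31 in HPC-1, HSC and MPP.

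Lars2, the gene of the mitochondrial leucyl-tRNA synthetase, was at 327, 422, 391.8 and 455 CPM in deleted HPC-1, against 228, 302, 155 and 236 CPM in controls. Its effects differed in sign, at 0.78 ± 0.18 in HPC-1, -0.56 ± 0.22 in HSC and 0.37 ± 0.26 in MPP. The difference was 0.94 ± 0.27 (95% interval 0.37 to 1.52, edgeR unadjusted p = 0.00282), and it was 1.40 against HSC and 0.48 against MPP.

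The other 5 upward genes were near 0 in at least 1 group, so that fitted folds carry no size. Lancl3 had 95 counts in deleted and 0 in control HPC-1 libraries, at least 34.4-fold higher in deleted HPC-1 when 3 counts over the 4 controls are taken as the floor. Such folds pool the counts of 4 libraries and leave out the spread between mice. Lancl3 ran from 0.0521 to 2.24 CPM in deleted HPC-1. Its within-mouse value in deleted mouse 4 (-0.25) lay among the controls (-1.3 to 1.16). It had 1111 and 527 counts in deleted and control HSC and 592 and 482 in deleted and control MPP. Pls1, which encodes an actin-bundling plastin, had 64 counts in deleted and 18 in control HPC-1, while it had 0 in deleted and 49 in control MPP, at least 17.1-fold lower. Maneal had 119 and 107 counts in deleted and control HPC-1, but 0 in deleted and 64 in control HSC, at least 28.7-fold lower. Ugt1a6a, one of a family of glucuronosyltransferases that share exons, had 66 and 2 counts in deleted and control HPC-1, a ratio of 35.8 (95% counting interval 9.54 to 302). Cdr2l had 50 and 4 counts there.

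Cavin3, which encodes a coat protein of caveolae (chromosome 7, 105480616 to 105482197 on GRCm38), had the lowest unadjusted p in the downward direction. It was at 3.95, 2.55, 2.61 and 2.29 CPM in deleted HPC-1, against 7.40, 8.11, 10.6 and 5.22 CPM in controls. In HSC, Cavin3 was at 71.5, 69.0, 115 and 60.2 CPM in deleted mice and at 86.7, 96.4, 78.2 and 100 CPM in controls. In MPP, Cavin3 was at 39.0, 35.6, 49.4 and 40.5 CPM in deleted mice and at 46.9, 49.5, 38.0 and 47.2 CPM in controls. The groups were apart in HPC-1 and overlapped elsewhere. Its effects were -1.46 ± 0.34 in HPC-1, -0.20 ± 0.21 in HSC and -0.16 ± 0.18 in MPP, and the difference was -1.25 ± 0.27 (95% interval -1.82 to -0.68, unadjusted p = 0.000197, edgeR adjusted p = 1). DESeq2 gave an adjusted p of 0.0167 for it, the lowest of a range that reached 1.

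Ctso, the gene of cathepsin O, a lysosomal protease, was at 65.4, 57.2, 59.5 and 50.8 CPM in deleted HPC-1, against 70.2, 66.3, 59.8 and 49.5 CPM in controls. In HSC, Ctso was at 350, 275, 302 and 181 CPM in deleted mice and at 199, 154, 201 and 156 CPM in controls. In MPP, Ctso was at 396, 338, 350 and 275 CPM in deleted mice and at 247, 230, 329 and 224 CPM in controls. HPC-1 libraries were mixed, and HSC and MPP overlapped through deleted mouse 4 alone. Its difference was -0.59 ± 0.16 (95% interval -0.92 to -0.25, edgeR unadjusted p = 0.00161).

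Maged1, an X-linked gene of the melanoma antigen family, was at 60.5, 56.1, 25.4 and 73.5 CPM in deleted HPC-1, against 71.9, 68.5, 103 and 81.0 CPM in controls. Its difference was -0.61 ± 0.16, from effects of -0.60 ± 0.31 in HPC-1, 0.04 ± 0.20 in HSC and -0.11 ± 0.23 in MPP. Fndc4, a gene of the fibronectin type III family, was at 33.3, 21.9, 22.98 and 16.3 CPM in deleted HSC, against 9.14, 9.58, 8.82 and 7.32 CPM in controls, with no overlap. In HPC-1, Fndc4 was close to 0, at 0.852, 0.0568, 0.418 and 0.834 CPM in deleted mice and 1.495, 0.862, 1.02 and 0.775 CPM in controls, and its difference was -2.22 ± 0.57. Jrkl had effects of -0.43 ± 0.24 in HPC-1, 1.53 ± 0.36 in HSC and 0.40 ± 0.29 in MPP, and a difference of -1.39 ± 0.37. Cpt1c, an isoform of carnitine palmitoyltransferase, had 0 counts in deleted and 63 in control HPC-1, at least 19.3-fold lower. Its deleted and control counts were 543 and 298 in HSC and 83 and 65 in MPP. Pkp2, the gene of a desmosomal plakophilin, had 1 and 42 counts in deleted and control HPC-1, a ratio of 38.7 of control to deleted (95% counting interval 6.57 to 1560). Its deleted and control counts were 162 and 144 in HSC and 218 and 50 in MPP. Control HPC-1 libraries ran from 0 to 1.91 CPM for Cpt1c and from 0 to 0.862 CPM for Pkp2, so both overlapped the deleted libraries.

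**Figure D3:**
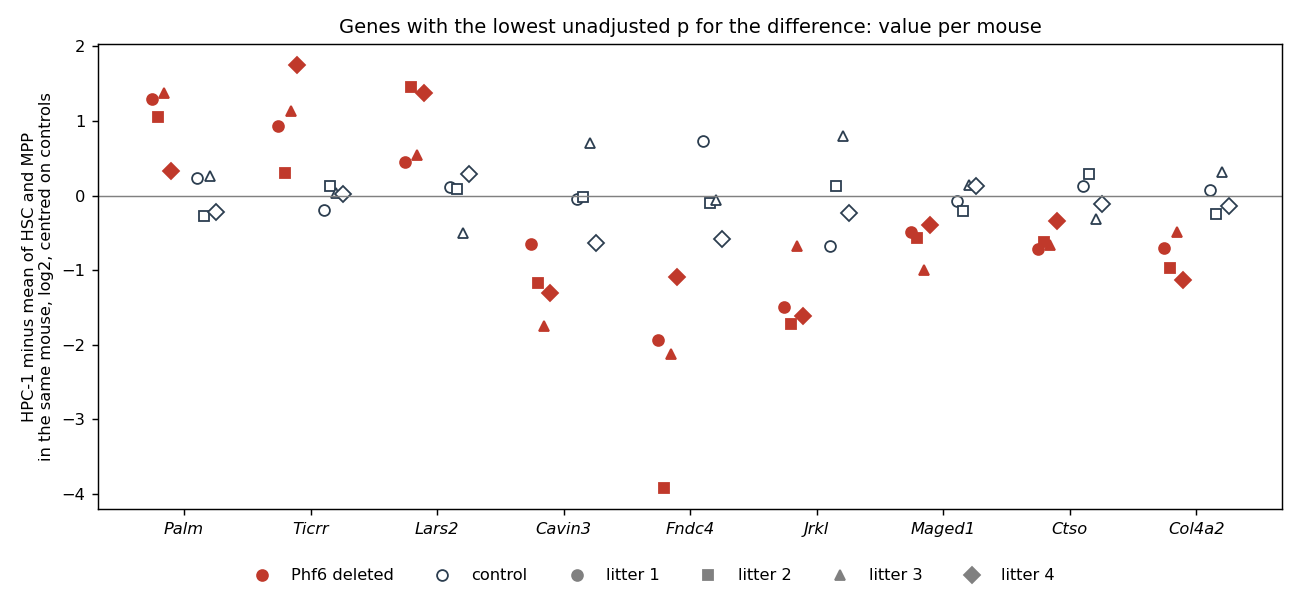
Log2 CPM of HPC-1 less the mean of HSC and MPP in the same mouse, centred on the mean of the control mice, for 9 of the genes with the lowest unadjusted p; filled red symbols are deleted mice, open dark symbols controls, and the shape gives the litter. Deleted mice lie apart from controls for Palm, Ticrr, Lars2, Cavin3, Fndc4, Maged1, Ctso and Col4a2, while Jrkl overlaps in 1 control mouse. Cavin3 (-0.65 in the nearest deleted and -0.64 in the nearest control mouse) and Ctso (-0.337 and -0.308) are barely apart. Of all genes 1.74% lay apart upwards and 1.33% downwards. The genes shown were chosen by p for this same difference, which favours separation, so nothing is read from their number.

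Gene lists were then read by the number of members whose difference was above 0 and by their median, beside the same values over all genes tested, of which 52.6% were above 0 and 47.4% below, with a median of 0.0226. No member of any list passed edgeR's test over all genes in the difference (lowest adjusted p of 1 in each of the 30 lists). A list's median difference is not the difference of its median effects, since each is a median over genes.

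**Figure D4:**
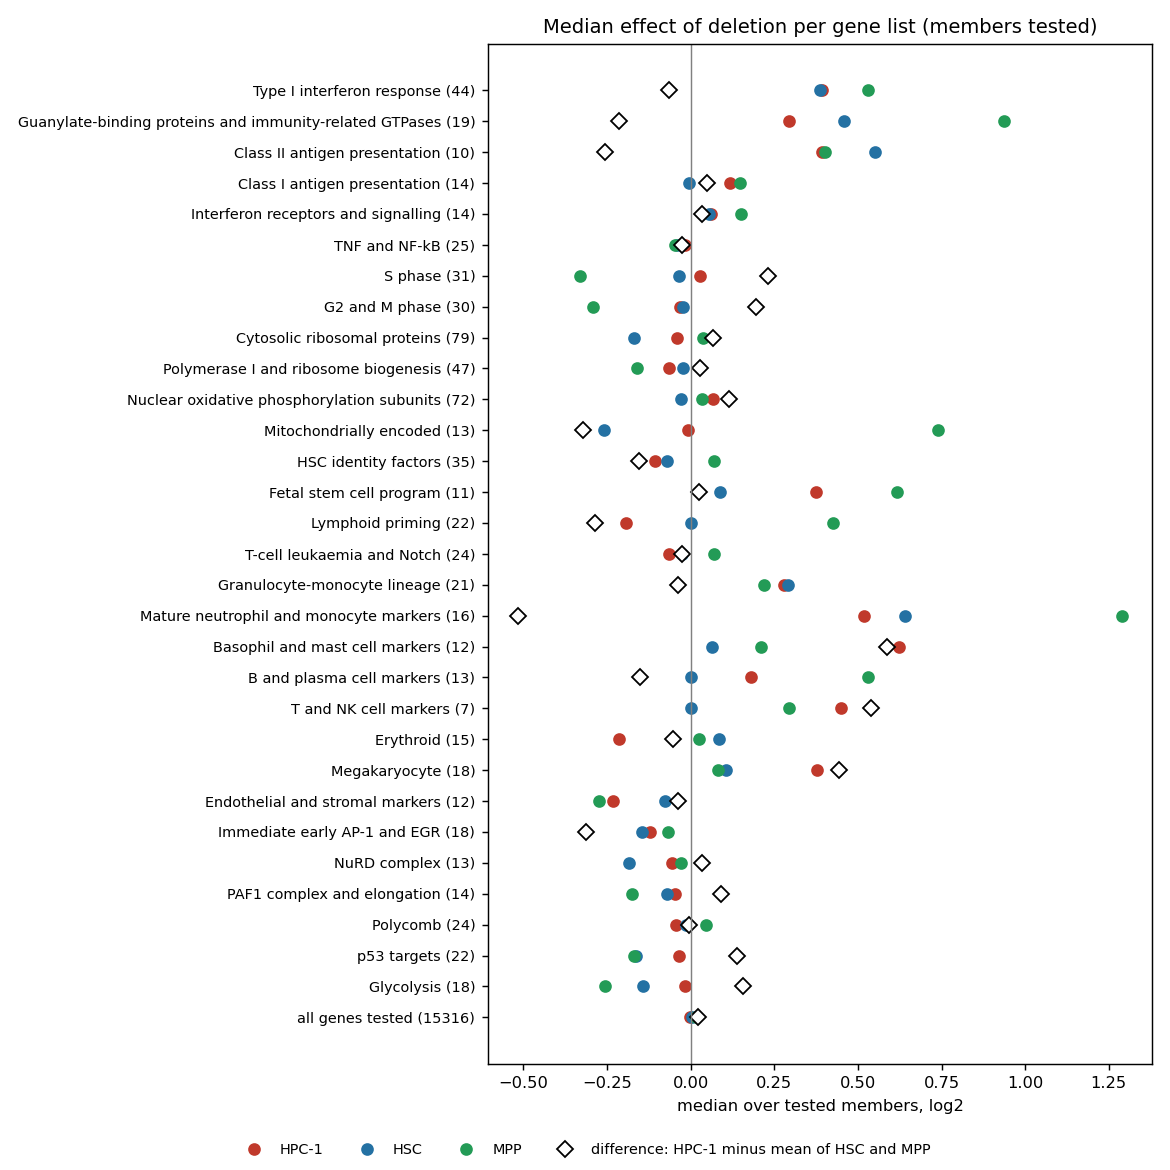
Median log2 effect of deletion over the tested members of each of 30 gene lists and over all genes, in HPC-1 (red), HSC (blue) and MPP (green), with the median difference of HPC-1 from the mean of the others as open diamonds; the number of members tested stands in brackets. Medians of interferon genes lay above 0 in all 3 populations (0.39 in HPC-1, 0.39 in HSC and 0.53 in MPP), with a median difference of -0.064.

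Interferon response genes, the antiviral effectors and signalling genes induced by type I interferon, had median effects above 0 in each population. Of 44 members tested, 42 were above 0 in HPC-1, 39 in HSC and 42 in MPP, with medians of 0.394, 0.386 and 0.529, where 49.3%, 50.3% and 51.6% of all genes were above 0. In the difference 15 of 44 lay above 0 and 29 below, with a median of -0.064, and 0 had an unadjusted p under 0.05. For 36 of the 44 the 95% interval lay within 1 log2 unit of 0. Without deleted mouse 4 the median was 0.0217 with 24 of 44 above 0, and without control mouse 3 it was 0.0135 with 23 of 44. The median was -0.139 with 13 of 44 without deleted mouse 3 and -0.114 with 15 of 44 without control mouse 4. In the fit without deleted mouse 3, 0 lay higher and 3 lower at an unadjusted p under 0.05, beside 377 and 353 of all 15316 genes.

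Rsad2, the gene of the antiviral enzyme viperin, was at 26.1, 21.6, 27.1 and 39.5 CPM in deleted HPC-1, against 15.1, 15.4, 11.6 and 14.0 CPM in controls. In HSC, Rsad2 was at 50.1, 60.7, 50.4 and 58.9 CPM in deleted mice and at 29.1, 29.5, 26.5 and 23.1 CPM in controls. In MPP, Rsad2 was at 68.0, 57.9, 169 and 110 CPM in deleted mice and at 33.0, 27.7, 41.2 and 38.9 CPM in controls. The groups were apart in all 3 populations. Its effects of 1.02 ± 0.20, 1.03 ± 0.19 and 1.5 ± 0.31 in HPC-1, HSC and MPP gave a difference of -0.24 ± 0.29 (95% interval -0.85 to 0.36). Ifi44, an interferon-induced gene, had effects of 0.79 ± 0.14, 0.97 ± 0.20 and 0.88 ± 0.22 and a difference of -0.13 ± 0.20 (95% interval -0.56 to 0.30). The members with the lowest p were Bst2, the gene of tetherin, a restriction factor that holds budding virus (0.30 ± 0.15), and Herc6, a ubiquitin ligase gene (-0.36 ± 0.20).

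GBP and IRG genes, cell-autonomous defence GTPases induced most strongly by interferon gamma, had their highest median effect in MPP. Of 19 tested members 19 were above 0 in HPC-1 (median 0.293), 15 in HSC (median 0.458) and 19 in MPP (median 0.936). In the difference 6 of 19 were above 0, with a median of -0.215. At an unadjusted p under 0.05, 1 lay higher and 1 lower, beside 1.69% and 1.78% of all genes. Without deleted mouse 3 the count above 0 was 3 of 19 (median -0.338). There 1 lay higher and 5 lower at an unadjusted p under 0.05, beside 377 and 353 of all 15316 genes. The median was -0.395 with 4 of 19 above 0 without control mouse 3 and -0.0918 with 7 of 19 without control mouse 2. Against MPP alone 4 of 19 were above 0 (median -0.396), beside 50.6% of all genes, and against HSC alone the median was -0.172. Igtp was at 71.3, 58.7, 79.2 and 53.6 CPM in deleted HPC-1, against 52.1, 43.9, 49.1 and 50.6 CPM in controls. In HSC, Igtp was at 129, 135, 134 and 142 CPM in deleted mice and at 95.2, 69.7, 104 and 90.0 CPM in controls. In MPP, Igtp was at 215, 175, 440 and 224 CPM in deleted mice and at 114, 89.3, 145 and 121 CPM in controls. Deleted libraries lay above controls in all 3 populations, with deleted MPP library 3 highest. Its effects of 0.42 ± 0.13, 0.59 ± 0.16 and 1.14 ± 0.28 gave a difference of -0.45 ± 0.21 (edgeR unadjusted p = 0.0417).

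Gbp6 was at 10.1, 6.36, 5.74 and 5.21 CPM in deleted HPC-1, against 6.81, 2.37, 7.31 and 6.28 CPM in controls, and the genotypes were mixed. In MPP, Gbp6 was at 85.3, 80.5, 66.6 and 63.4 CPM in deleted mice, against 24.5, 9.33, 37.2 and 17.4 CPM in controls, with no overlap. Its difference was -1.57 against MPP (edgeR unadjusted p = 0.00157), 0.03 against HSC and -0.77 ± 0.37 against their mean. Gbp4 stood at -1.08 against MPP, -0.30 against HSC and -0.69 ± 0.36 against their mean. Gbp3 had effects of 0.02, 0.45 and 0.99 in HPC-1, HSC and MPP and a difference of -0.67 ± 0.33. The member that lay higher was Gm4951, described above. Reads shared among these near-identical genes may be split among them, and the part of this in the result was not tested.

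The 250 bases before the start of interferon genes often hold the core of the interferon-stimulated response element, searched here as GAAANNGAAA on both strands (TTTCNNTTTC on the other). The window before each gene's start, from RefSeq promoters on GRCm38.p6, held a match for 378 of 11362 genes with a promoter in the table (3.33%), for 11 of 31 interferon response genes (35.5%) and for 9 of 10 GBP and IRG genes (90%). It held none for the 7 class II genes, for the 5 genes called within a population and the 13 of lowest p that the table holds. A match is a description of letters and not of a binding site. The upstream windows of Rsad2, whose difference was under 1 SE, and of Igtp, the GBP and IRG member lowest in the difference at an unadjusted p under 0.05, are shown 5′ to 3′ with the match in capitals. They lie at chr12:26456453-26456702 on the minus strand and chr11:58199306-58199555 on the plus strand.

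Rsad2: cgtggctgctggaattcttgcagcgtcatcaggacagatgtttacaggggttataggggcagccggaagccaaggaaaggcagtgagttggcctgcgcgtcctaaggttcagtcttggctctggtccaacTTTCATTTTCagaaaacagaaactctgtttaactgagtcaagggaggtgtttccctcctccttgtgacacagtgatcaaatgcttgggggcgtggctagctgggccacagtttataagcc
Igtp: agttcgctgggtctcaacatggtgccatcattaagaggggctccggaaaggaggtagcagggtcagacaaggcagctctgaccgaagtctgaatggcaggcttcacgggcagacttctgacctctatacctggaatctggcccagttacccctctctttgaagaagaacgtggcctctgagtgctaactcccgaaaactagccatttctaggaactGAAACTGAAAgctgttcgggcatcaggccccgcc

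Class II antigen presentation genes had 2 of 10 members above 0 in the difference, with a median of -0.256, and medians of 0.393, 0.551 and 0.401 in HPC-1, HSC and MPP. The median difference was -0.115 with 5 of 10 above 0 without deleted mouse 4, -0.0349 with 4 of 10 without control mouse 2 and -0.143 with 3 of 10 without deleted mouse 3, and 1 to 3 of 10 were above 0 without any 1 of the other mice. Against MPP alone the class II median was -0.41 with 3 of 10 above 0, and against HSC alone it was -0.0737 with 5 of 10. H2-Ab1, a class II beta chain gene, was at 115, 128, 97.5 and 104 CPM in deleted HPC-1, against 89.2, 70.9, 59.1 and 75.6 CPM in controls. In HSC, H2-Ab1 was at 212, 169, 267 and 199 CPM in deleted mice and at 144, 79.0, 122 and 129 CPM in controls. In MPP, H2-Ab1 was at 410, 344, 351 and 540 CPM in deleted mice and at 154, 129, 143 and 214 CPM in controls. The groups were apart in all 3 populations. Its difference was -0.51 ± 0.22 (95% interval -0.98 to -0.04, edgeR unadjusted p = 0.036), from effects of 0.59 ± 0.13, 0.83 ± 0.20 and 1.35 ± 0.22. H2-DMb1, a chaperone subunit that loads peptide onto class II, was at -0.34 ± 0.24.

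Cell cycle genes had positive median differences. Of 31 S phase genes tested, which encode the replicative helicase, polymerases and nucleotide supply, 25 were above 0 in the difference (median 0.231). Beside 1.69% higher and 1.78% lower among all genes, 3 S phase genes were higher and 0 lower at an unadjusted p under 0.05. Their median effects were 0.028 in HPC-1, -0.033 in HSC and -0.33 in MPP, and the median difference was 0.449 against MPP and 0.094 against HSC. Of 30 G2 and M phase genes 23 were above 0 (median 0.197), with median effects of -0.031, -0.024 and -0.291. At an unadjusted p under 0.05, 2 of them were higher and 0 lower, beside the same 1.69% and 1.78% of all genes. Without deleted mouse 3 the S phase count was 28 of 31 (median 0.327) and the G2 and M count 29 of 30 (median 0.276). Without deleted mouse 4 the S phase count was 19 of 31 (median 0.102) and the G2 and M count 14 of 30 (median -0.016). That mouse had a within-mouse S phase score of 0.707, against 0.021 to 0.082 in the other deleted mice and -0.096 to 0.058 in controls, and a G2 and M score of 0.827, against -0.098 to 0.066 and -0.114 to 0.102.

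Chaf1a, the large subunit of a chromatin assembly factor that works at replication forks, was at 162, 157, 153 and 161 CPM in deleted HPC-1, against 134, 146, 143 and 172 CPM in controls. In HSC, Chaf1a was at 113, 88.0, 106 and 91.7 CPM in deleted mice and at 102, 114, 99.5 and 156 CPM in controls. In MPP, Chaf1a was at 48.9, 43.5, 24.8 and 31.6 CPM in deleted mice and at 73.6, 76.9, 46.6 and 76.5 CPM in controls. Only in MPP did most deleted libraries lie below the controls. Its difference was 0.65 ± 0.20 (edgeR unadjusted p = 0.00467), 0.98 against MPP and 0.32 against HSC, and within mice all 4 deleted values lay above all 4 controls. E2f1, a transcription factor that starts S phase, was at 0.65 ± 0.23, and Mcm2, a helicase subunit, at 0.49 ± 0.23. Ttk, a mitotic checkpoint kinase gene, was at 0.72 ± 0.27, and Kif11, the gene of a spindle motor, at 0.61 ± 0.29.

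**Figure D5:**
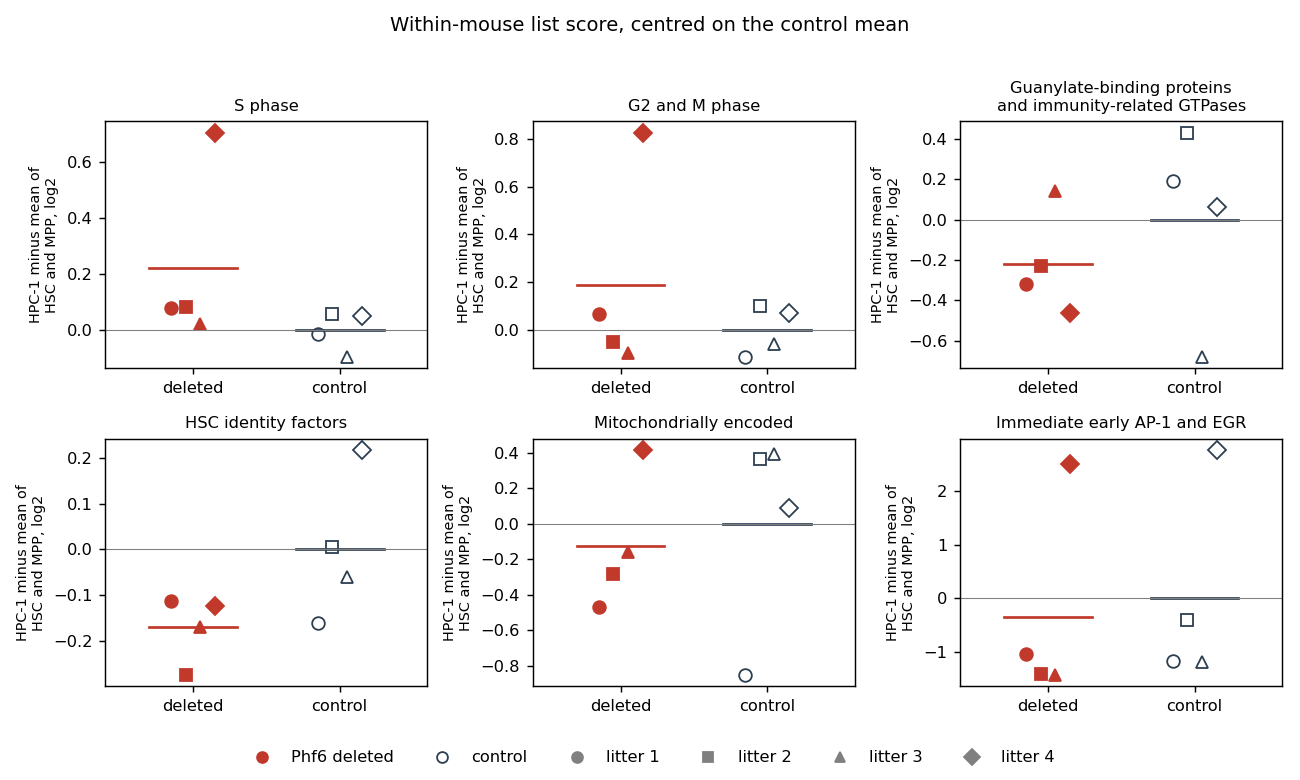
Mean over the members of 6 gene lists of log2 CPM in HPC-1 less the mean of HSC and MPP in the same mouse, centred on the control mean, for 4 deleted (filled red) and 4 control mice (open dark), the shape giving the litter and the bar the mean. Deleted mouse 4 stands at 0.707 for S phase and 0.827 for G2 and M phase, and both mice of litter 4 stand at 2.5 and 2.75 for immediate early genes.

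Transcription factors and surface genes of HSC identity had a median difference below 0: 10 of 35 tested members were above 0 and 25 below, with a median of -0.155. Against MPP alone the median was -0.223 with 7 of 35 above 0, and against HSC alone it was -0.0179 with 16 of 35. In the difference from their mean, 5 were lower (beside 1.78% of all genes) and 1 higher (beside 1.69%) at an unadjusted p under 0.05. Over the 8 fits that left out 1 mouse, 9 to 12 members were above 0. Hmga2, an architectural chromatin protein gene of fetal stem cells, was at 31.5, 27.1, 56.9 and 33.8 CPM in deleted HPC-1, against 50.01, 38.2, 46.4 and 54.1 CPM in controls. In HSC, Hmga2 was at 9.55, 19.5, 18.7 and 17.4 CPM in deleted mice and at 11.8, 8.42, 12.2 and 7.60 CPM in controls. In MPP, Hmga2 was at 17.5, 9.80, 36.3 and 22.8 CPM in deleted mice and at 17.5, 10.1, 16.9 and 11.6 CPM in controls. Genotypes overlapped in all 3 populations, but within mice all 4 deleted values, -0.73, -1.04, -0.89 and -1.25, lay below the control values of -0.22, 0.03, -0.32 and 0.50. Its difference was -1.03 ± 0.31 (95% interval -1.69 to -0.38, edgeR unadjusted p = 0.00355).

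Homeobox genes of the A cluster stood among the others. Hoxa10 was at 11.2, 8.34, 14.9 and 11.04 CPM in deleted HPC-1, against 12.7, 14.96, 18.3 and 15.3 CPM in controls, and the difference was -0.75 ± 0.23 (edgeR unadjusted p = 0.004), from effects of -0.43 ± 0.22, 0.21 ± 0.22 and 0.37 ± 0.22 in HPC-1, HSC and MPP. Hoxa5 was at 18.2, 17.4, 19.5 and 16.8 CPM in deleted HPC-1, all below the controls at 19.5, 26.3, 29.0 and 28.8 CPM apart from a near tie of deleted library 3 with control 1. Its difference was -0.89 ± 0.30, in which deleted MPP library 3, at 55.4 CPM against 21.3 to 25.3 CPM in the others, takes part. Procr, the gene of the endothelial protein C receptor that marks HSC, was at 21.1, 16.0, 20.3 and 23.9 CPM in deleted HPC-1, against 26.1, 29.7, 37.0 and 30.6 CPM in controls, with no overlap, and its difference was -0.61 ± 0.23. Ndn, the gene of necdin, was at -0.68 ± 0.26. Zbtb16, the gene of the zinc finger protein PLZF, was the member on the other side, at 1.03 ± 0.44, from effects of -0.11 ± 0.24, -1.30 ± 0.39 and -1.01 ± 0.42.

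Lineage genes were read as signs of priming and of other cells. Of 22 lymphoid priming genes tested 4 were above 0 (median -0.286). Gata3, a T-lineage transcription factor gene, was at 6.43, 7.21, 4.85 and 6.04 CPM in deleted HPC-1, against 18.6, 11.04, 15.3 and 8.53 CPM in controls, with no overlap. In HSC, Gata3 was at 35.5, 30.5, 21.96 and 34.3 CPM in deleted mice and at 41.5, 36.1, 40.1 and 29.9 CPM in controls. Its effects were -1.13 ± 0.27, -0.27 ± 0.23 and -0.46 ± 0.21 in HPC-1, HSC and MPP, and its difference -0.72 ± 0.21 (95% interval -1.15 to -0.29, edgeR unadjusted p = 0.00256). The lymphoid median was 0.03 with 11 of 22 above 0 without deleted mouse 4, -0.157 with 9 of 22 without control mouse 2, -0.177 with 8 of 22 without deleted mouse 3 and -0.621 with 5 of 22 without deleted mouse 1. In HSC, 7 of the 25 listed genes were at 0 in all deleted and 7 in all control libraries.

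Megakaryocyte genes had 15 of 18 members above 0 (median 0.445), with median effects of 0.379, 0.106 and 0.082 in HPC-1, HSC and MPP. At an unadjusted p under 0.05, 2 were higher, beside 1.69% of all genes. Mmrn1, the gene of multimerin, was at 50.2, 57.1, 48.6 and 40.4 CPM in deleted HPC-1, against 30.02, 36.0, 29.8 and 26.8 CPM in controls, with no overlap. In HSC, Mmrn1 was at 468, 743, 384 and 516 CPM in deleted mice and at 454, 496, 584 and 327 CPM in controls, which overlapped. Its difference was 0.50 ± 0.21. Selp, the gene of P-selectin, was at 0.91 ± 0.34, and Itga2b, the alpha chain of the platelet fibrinogen receptor, at 0.46 ± 0.24, of which 0.96 was against MPP and -0.03 against HSC. The count stayed at 12 to 16 of 18 without any 1 mouse. The list summed to 466 to 481 CPM in deleted and 354 to 424 CPM in control HPC-1 libraries, to 3140 to 3930 and 2910 to 3670 CPM in deleted and control HSC, and to 1350 to 1700 and 1210 to 1770 CPM in deleted and control MPP.

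Markers of mature neutrophils and monocytes, which the GR1 antibody should remove, had 3 of 16 members above 0 in the difference (median -0.515), with medians of 0.517, 0.642 and 1.29 in HPC-1, HSC and MPP. Without control mouse 3 the count was 6 of 16 and the median -0.0599. That mouse had a within-mouse score of 1.16, against -0.921 to 0.017 in the other controls and -0.881 to 0.078 in deleted mice. Without control mouse 1 the count was 1 of 16 and the median -0.803. They summed to 474 to 3370 CPM in deleted and 528 to 1650 CPM in control HPC-1, to 1360 to 10700 and 608 to 7530 CPM in deleted and control HSC, and to 1410 to 13700 and 252 to 2830 CPM in deleted and control MPP. None of the 16 was at 0 throughout a group. Chil3, the gene of a chitinase-like protein of neutrophil precursors, was at -0.82 ± 0.37, and Mmp8, neutrophil collagenase, at -1.37 ± 0.63, with its highest values in deleted mouse 4 (56.6 CPM in HPC-1, 232 in HSC and 245 in MPP). Basophil and mast cell markers had 8 of 12 members above 0 (median 0.586). B and plasma cell markers had 4 of 13 (median -0.152), T and NK cell markers 4 of 7 (median 0.539), erythroid genes 6 of 15 (median -0.052) and endothelial and stromal markers 6 of 12 (median -0.036). Of these 12 endothelial and stromal markers, 0 were higher and 3 lower at an unadjusted p under 0.05, Col4a2 among them. Of all genes 1.69% were higher and 1.78% lower by that rule. The B and plasma cell median changed sign with the mice, at 0.276 with 10 of 13 above 0 without deleted mouse 4, 0.249 with 9 of 13 without control mouse 2 and -0.645 with 4 of 13 without deleted mouse 1. Without any 1 mouse the basophil and mast cell median lay between 0.259 and 0.902, the T and NK cell median between 0.321 and 0.759, the erythroid median between -0.242 and 0.0514 and the endothelial and stromal median between -0.361 and 0.0986. These lists had median standard errors of 0.367 to 2.29, against 0.309 for all genes. Their part in the results above was not tested.

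The 13 mitochondrially encoded genes were all below 0 in the difference (median -0.32), but with opposite signs in its components, at 0.171 against HSC and -0.767 against MPP. Their summed level was 16100 to 18500 CPM in deleted and 15300 to 19400 CPM in control HPC-1, and 12200 to 56400 and 12500 to 28100 CPM in deleted and control MPP. Without deleted MPP library 3, 8 of 13 were above 0 (median 0.093). Immediate early genes, the transcription factors induced within minutes of stimulation, had 4 of 18 above 0 (median -0.311), a count that ran from 0 to 17 when 1 mouse was left out. Fosb was at 201, 78.9, 27.5 and 2737 CPM in deleted HPC-1, against 476, 88.9, 74.6 and 2842 CPM in controls, so that the mice of litter 4 were high whatever their genotype.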

How the data were processed

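Poly(A) RNA of HSC, MPP and HPC-1 sorted from 8 mice was sequenced as 24 libraries of paired 80 bp reads. The authors deposited unnormalized counts for each gene and library. The submitters' processing notes list bcl2fastq, featureCounts and the build mm10. Tool versions, the aligner, the annotation and how strand was handled are not given in the sources. Of 27179 genes, 25275 had a name in the RefSeq table of GRCm38.p6.

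Counts were fitted with edgeR 4.0.16 (R 4.3.3): TMM scaling, the 15316 genes past filterByExpr (count 10, total 15), the mouse as a block, population, and deletion within population (12 residual degrees of freedom), with the robust quasi-likelihood test and Benjamini-Hochberg adjustment over all genes at 0.05. Effects within a population came from its 8 libraries without a block. SE is the log2 value over the root of F, and 95% intervals are approximate. Within-mouse values use log2 CPM with a prior count of 2. DESeq2 1.42.0 and limma 3.58.1 served as alternatives. The fit was also run on simulated counts, with differences placed only in genes over 10 CPM. That run does not cover genes under 10 CPM, and nothing is read from it here.

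Libraries of a mouse are paired by design; deviations from group means correlated at 0.019 to 0.32 within deleted and 0.03 to 0.25 within control mice. No 2 libraries agreed within counting noise (chi-square per degree of freedom 16.1 to 234). Totals of 9658167 to 27786830 counts limit precision, and counting intervals cover counting error only. The text names Phf6, 8 genes per direction with the lowest p for the difference (predicted and unnamed genes not ranked), genes past the threshold within a population and, for some of the lists, up to 2 members of lowest p. Rsad2, Ifi44, Gbp3, Gbp4, Gbp6, Hoxa5, Procr, Ndn, Zbtb16, Mcm2, Itga2b and the unnamed gene were added after their values were seen. The members and lists were chosen with earlier results of these data known.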

Additional observations from a re-analysis of the deposited data

Results flagged for a closer look

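Within groups of 4 libraries or mice, 22 of 312 groups examined had 1 value so far from the other 3 that the gap, as a share of the range, passed Dixon's 95% critical value, where 15.6 would do so by chance. Each of the 22 is given as a value, and no explanation was tested.

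Deleted MPP library 3 stood apart in 4 genes. It held Cpt1c at 0 CPM (1.32 to 1.43 in the others), Adgrl1 at 5.97 CPM (3.17 to 3.49), Hoxa5 at 55.4 CPM (21.3 to 25.3) and Procr at 185 CPM (150 to 156). Deleted mouse 4 stood apart in the within-mouse scores, at 0.707 for S phase (0.0207 to 0.0818 in the other deleted mice), 0.226 for the fetal stem cell program (-0.18 to -0.112) and 2.5 for immediate early genes (-1.42 to -1.03), and its HPC-1 library held Adgrl1 at 21.6 CPM (31.9 to 32.8).

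Among other deleted libraries, HPC-1 library 2 held Pkp2 at 0.0568 CPM where the others had 0, and HSC library 2 held Mcm2 at 316 CPM (296 in the others). Among controls, HPC-1 library 1 held Lin28b at 1.3 CPM (0 to 0.122), Cdr2l at 0.157 CPM (0) and Ugt1a6a at 0.0787 CPM (0). Control MPP library 1 held Ticrr at 20.5 CPM (14.5 to 15) and Ugt1a6a at 0.293 CPM (0.0441 to 0.074). Control HSC library 3 held Lancl3 at 22.5 CPM (2.79 to 5.37) and Maged1 at 152 CPM (104 to 111). Control HPC-1 library 4 held Itga2b at 93.3 CPM (128 to 131). The unnamed gene with the lowest p was at 0.0431 CPM in control HPC-1 library 2 and at 0 in the others. Igkv12-44 was at 0.0826 CPM in control HSC library 2 and 0.132 CPM in control MPP library 3, with 0 in the others. Control mouse 1 had an endothelial and stromal score of -0.696 (0.197 to 0.262).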

How the results depend on the processing

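The count of 0 genes for HPC-1 against the mean of HSC and MPP stood with DESeq2 size factors, normalization within each population, no filter, a filter at 1 CPM, both limma-voom fits, the added litter block and no replicate block. DESeq2 called 25 genes, and 36 and 13 against HSC and MPP alone. Without the replicate block of mice 1 gene (Maneal) passed against HSC. Leaving out 1 mouse or library gave 0 to 2 genes in the main comparison, 0 to 1 against HSC and 0 to 1 against MPP, the 2 without deleted mouse 4 or its HPC-1 library. The replicate block of litters within a population gave 67 genes in HPC-1 and 0 in HSC. The cause was not tested.

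Of the differences of named genes, 15 values under other settings changed sign, all of them in Phf6, Adgrl1, Lin28b, Serpina3f, H2-Eb1 and Fosb. The difference of Serpina3f was -0.0828 without the replicate block, -0.000398 with DESeq2, and -0.0223 and -0.0237 with limma-voom. Without 1 mouse, Serpina3f ran from -0.192 to 0.206, Phf6 from -0.398 to 0.032, Adgrl1 from -0.346 to 0.0797, Lin28b from -2.27 to 0.366, H2-Eb1 from -0.425 to 0.132 and Fosb from -2.45 to 0.116. Of the list medians under other settings, chosen after the data were seen, 1207 stayed within the spread and 23 moved beyond it. No setting moved the median over all genes by over 0.1. Depth limits genes under 10 CPM, whose intervals seldom lay within 1 log2 unit of 0.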

Other observations

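Housekeeping and chromatin lists are given as values. Nuclear genes of oxidative phosphorylation had 51 of 72 members above 0 in the difference (median 0.116). They had 32 of 72 (median -0.0267) without deleted mouse 4 and 68 of 72 (median 0.249) without deleted mouse 3. In that last fit 11 were higher and 0 lower at an unadjusted p under 0.05, beside 377 and 353 of all 15316 genes. Cytosolic ribosomal proteins had 47 of 79 (median 0.068), 19 of 79 (median -0.103) without deleted mouse 4 and 62 of 79 (median 0.191) without deleted mouse 3. Glycolysis genes had 15 of 18 (median 0.157), and 12 to 15 of 18 without any 1 mouse. At an unadjusted p under 0.05, 1 glycolysis gene was higher and 1 lower, beside 1.69% and 1.78% of all genes. RNA polymerase I and ribosome biogenesis genes had 27 of 47 (median 0.0276) and p53 targets 15 of 22 (median 0.138).

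Subunits of NuRD, a nucleosome remodelling complex that binds PHF6, had 8 of 13 members above 0 (median 0.0348). PAF1 complex and elongation genes had 9 of 14 (median 0.0909), and Polycomb genes 12 of 24 (median -0.00408). Genes of T-cell leukaemia and Notch, a list that holds Phf6, had 11 of 24 (median -0.0266). The fetal stem cell program had 6 of 11 (median 0.0243), with 1 interval within 1 log2 unit of 0. Class I antigen presentation had 9 of 14 (median 0.0505), interferon receptors and signalling 7 of 14 (median 0.0332), TNF and NF-kB genes 12 of 25 (median -0.0242) and granulocyte-monocyte genes 10 of 21 (median -0.036). The TNF and NF-kB median changed sign in 22 of 41 other settings and was 0.208 with 19 of 25 above 0 without control mouse 4. The granulocyte-monocyte median changed sign in 11 of 41 and lay between -0.202 without deleted mouse 2 and 0.197 without control mouse 3. Medians of the ribosomal protein, polymerase I, Polycomb, T-cell leukaemia, fetal, class I and interferon receptor lists changed sign in 3 to 11 of 41 settings.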
